A study of Mus musculus with 2 samples.

Results

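The genes described here are 10 that guard protein folding in the endoplasmic reticulum (ER): the stress sensors Ern1 and Atf6, the transcription factor Xbp1, the chaperones Hspa5, Hsp90b1, Pdia4 and Dnajb9, the degradation factor Herpud1, and the glycoprotein folding sensors Uggt1 and Uggt2. They were chosen by symbol. Every probe set that the platform annotation gave to 1 of these symbols and to no other gene was taken, which gave 27 of the 34945 probe sets with a single symbol, and 10 of 18193 named genes. No probe set joined a member to another gene. The set was put together with differences between these arrays already known, that of Uggt2 among them, so all differences of members are given as descriptions.

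Messenger RNA was measured in E14 cells, an established mouse embryonic stem (ES) cell line. Cells of the Mll2 shRNA group carried a lentiviral short hairpin RNA (shRNA) against Mll2, a histone H3 lysine 4 methyltransferase, and cells of the control group a lentiviral control shRNA. Infection lasted 24 h and puromycin selection 5 days. The labels do not give the number of hairpins, or whether the cells were a pool or a clone. Each group had 1 array, so differences have no replicate check and were not tested.

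Proteins of the secretory pathway fold in the ER with the help of chaperones and of sugar chains that report their folding state. When unfolded protein accumulates, sensors in the ER membrane start the unfolded protein response (UPR): IRE1, the product of Ern1, splices Xbp1 mRNA, ATF6 is cut free as a transcription factor, and PERK, the product of Eif2ak3, slows translation. Transcription factors made in this way raise chaperone and degradation genes. The arrays measured mRNA level and neither the splicing of Xbp1 nor the cleavage of ATF6.

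A floor was set at the pooled median of both arrays, a log2 signal of 6.02 (64.7 on the linear scale), to which all lower values were set. Genes with a value above the floor in either array were taken as measured, 11805 in all. All 10 members were measured, each with a probe set above the floor on both arrays. The array medians were 6.01 with the Mll2 shRNA and 6.02 with the control shRNA. Of the genes that have been called Mll2, Kmt2d gave signals of 335 (Mll2 shRNA) and 736 (control), a log2 difference of -1.14, and Kmt2b 852 against 901 (-0.08). The labels do not say which of them the shRNA was aimed at. All 12 ES cell markers looked up were measured, with Dppa5a (log2 14.64 in Mll2 shRNA and 14.86 in control) and Tdgf1 (13.55 and 13.91) the brightest. By more than the spread at their level, defined below, 4 were higher and 7 lower, beside 17.4% and 12.6% of all measured genes. Their log2 differences ran from 0.59 for Klf4 to -0.90 for Lin28a, and their summed signal was 98730 and 107402. Of 12 markers of primitive and parietal endoderm, which secrete much protein, 10 were measured. Sparc (log2 11.60 and 12.17) and Lamb1 (11.51 and 11.73) were the brightest. None was 2-fold apart, and by more than the spread 0 were higher and 3 lower. Differences ran from 0.59 for Sox17, which was below the floor in control, to -0.59 for Dab2. Gata4 and Pdgfra were below the floor on both arrays. The summed signal was 9651 in Mll2 shRNA and 11492 in control. Of 12 fibroblast markers 6 were measured, with summed signals of 24945 and 19229, most of it from Vim and Fn1, which ES cells can also express. Their median difference was 0.34, with 4 above 0 and 2 below, and 3 higher and 0 lower by more than the spread. The highest was Col1a2 at 0.70, with dim signals (log2 7.53 and 6.83). The lowest was Col1a1 at -0.58 (5.08 and 6.59), which was below the floor in Mll2 shRNA. Thy1, Dcn, Lum, Postn, Prrx1 and Col6a1 were below the floor on both arrays. The part of these marker differences in the results was not tested.

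**Figure D1:**
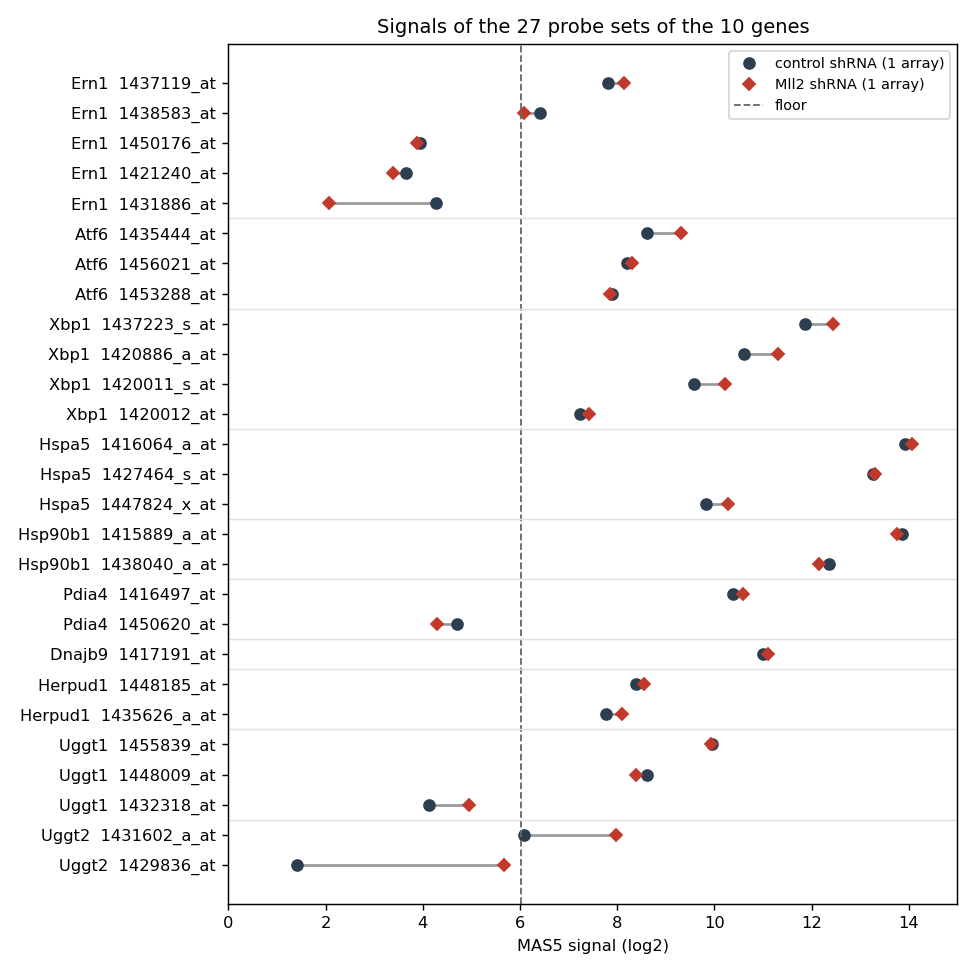
Log2 MAS5 signal (x axis) of each of the 27 probe sets of the 10 genes (y axis) on the Mll2 shRNA array (red diamonds) and the control shRNA array (dark circles), 1 array each; the dashed line is the floor of 6.02. Most pairs of symbols nearly touch. The pairs farthest apart are those of both Uggt2 probe sets, higher with the Mll2 shRNA, and of Ern1 1431886_at, lower with it, which is among the 6 probe sets below the floor on both arrays.

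Of the 27 probe sets, 21 lay above the floor on both arrays and 6 below it on both, as the plot of signals shows. A gene was represented by its measured probe set with the highest mean. In that probe set 8 of the 10 genes had a higher value in the Mll2 shRNA array and 2 a lower one, and 53.5% of all measured genes were higher. The median log2 difference of the members (Mll2 shRNA minus control) was 0.18, or 0.16 without Uggt2, beside 0.03 over all measured genes. Only Uggt2 was at least 2-fold higher, a call made for 1.47% of measured genes, and none was 2-fold lower (0.983% of genes). At 1.5-fold, 2 members were higher, Uggt2 and Atf6, beside 7.4% of genes. With no replicates, a difference was also set against the spread at its level, which is 1.48 times the median absolute deviation of the differences of the 500 genes nearest in mean signal and holds real differences as well as noise. By that measure Uggt2, Atf6 and Xbp1 were higher by more than the spread, beside 17.4% of measured genes, and the other 7 members lay within it. In whole-culture RNA a change in the share of a cell type and a change in RNA per cell cannot be told apart.

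**Figure D2:**
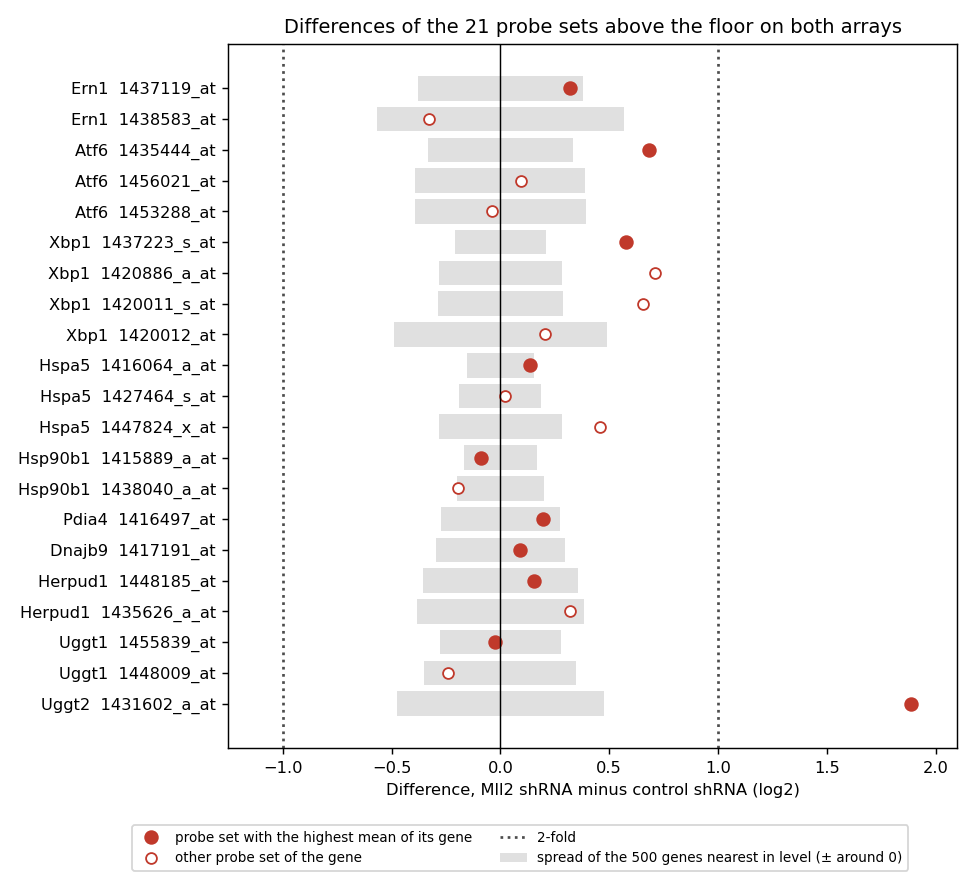
Log2 difference, Mll2 shRNA minus control shRNA (x axis), of the 21 probe sets that both arrays read above the floor (y axis); filled points are the probe set that represents its gene, open points its other probe sets, grey bars the spread at that level on both sides of 0, and dotted lines 2-fold. Uggt2 lies at 1.89, 3 of 4 Xbp1 probe sets lie beyond their bars, and of the 3 Atf6 probe sets only 1 does.

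Ern1 encodes IRE1, the kinase and endonuclease that splices Xbp1 mRNA. Its brightest probe set, 1437119_at, gave signals of 280 (Mll2 shRNA) and 225 (control), a log2 difference of 0.32 with a spread of 0.38 at its level. The dimmer 1438583_at went the other way, from 85.5 in the control to 68.1 (-0.33), close to the floor. The mean over both was -0.0050 ± 0.46 (SD over 2 probe sets), so the arrays gave no direction for Ern1. The remaining 3 Ern1 probe sets lay below the floor on both arrays and have no ratio; the farthest apart, 1431886_at, had log2 values of 2.07 (Mll2 shRNA) and 4.27 (control).

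Atf6 encodes the membrane-bound transcription factor that moves to the Golgi under stress and is released there by proteolysis. Probe set 1435444_at gave signals of 631 (Mll2 shRNA) and 393 (control), 1.61-fold, a log2 difference of 0.68 against a spread of 0.34. Neither of the other Atf6 probe sets shared this difference: 1456021_at had 315 and 296 (0.09), and 1453288_at had 231 and 237 (-0.04). Averaged over the 3 the difference was 0.25 ± 0.39 (SD over 3 probe sets). The SD over probe sets was larger in only 14.8% of the 4713 genes with several such probe sets, so Atf6 was among the genes whose probe sets differed most.

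Xbp1, the transcription factor whose mRNA IRE1 splices, was higher in all 4 of its probe sets. Probe set 1437223_s_at read 5546 with the Mll2 shRNA and 3723 with the control shRNA, 1.49-fold, a log2 difference of 0.58 against a spread of 0.21. Probe set 1420886_a_at had 2545 and 1558 (0.71), and 1420011_s_at had 1197 and 760 (0.66). All 3 exceeded the spread at their level, by factors of 2.76, 2.50 and 2.30. The dimmest, 1420012_at, had 172 and 150 (0.20), within its spread of 0.49. The mean over the 4 was 0.54 ± 0.23 (SD over 4 probe sets), and 911 of the 11805 measured genes had a higher difference than Xbp1. The 3 brighter probe sets carry suffixes that mark probes shared by several transcripts, and without such probe sets only the value of 0.20 is left. They may share probes, and their agreement within 1 pair of arrays says nothing of variation between cultures.

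The chaperones themselves differed little. Hspa5 encodes BiP, the HSP70 of the ER, which binds unfolded chains and holds the sensors inactive. Its brightest probe set, 1416064_a_at, gave signals of 17153 (Mll2 shRNA) and 15615 (control), a difference of 0.14 with a spread of 0.15, and 1427464_s_at had 10044 and 9896 (0.02). The third, 1447824_x_at, a kind of probe set prone to cross-hybridisation, had 1240 and 902 (0.46, spread 0.28). Over the 3 the mean was 0.21 ± 0.23 (SD over 3 probe sets). All 3 carry suffixes, so Hspa5 was not measured without suffixed probe sets.

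Hsp90b1 encodes GRP94, the HSP90 of the ER, and lay lower in both of its probe sets. Probe set 1415889_a_at had 13883 with the Mll2 shRNA and 14775 with the control shRNA (-0.09, spread 0.17), and 1438040_a_at had 4560 and 5223 (-0.20, spread 0.20). Both lay within their spread, and the sign of the brighter one depended on the scaling: it was 0.03 with scaling on the bacterial spike-in controls and 0 after quantile normalization. Both carry suffixes, so Hsp90b1 was not measured without suffixed probe sets. Pdia4, a disulphide isomerase of the ER also called ERp72, had signals of 1532 and 1338 (0.19, spread 0.27). Its other probe set did not reach the floor on either array. Dnajb9 encodes ERdj4, a co-chaperone of BiP, and had 2194 and 2060 in its only probe set (0.09, spread 0.30).

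Herpud1 encodes a membrane protein that organises the ubiquitin ligase complex for ER-associated degradation. Probe set 1448185_at read 374 with the Mll2 shRNA and 335 with the control shRNA (0.16, spread 0.36), and 1435626_a_at had 273 and 219 (0.32, spread 0.38). The mean was 0.24 ± 0.11 (SD over 2 probe sets). In the probe set that represents each, the 4 chaperones and Herpud1 lay at log2 differences from -0.09 (Hsp90b1) to 0.19 (Pdia4), all within the spread at their level.

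Promoters of several UPR targets are known to act through short response elements, and those of 4 members are printed to set them beside the small differences of Hspa5, Hsp90b1 and Herpud1 and the large one of Uggt2. RefSeq promoter windows on GRCm38.p6, from 250 bases before to 50 bases after the transcription start, matched 9 of the 10 members. They were searched on both strands for the ER stress response element (ERSE, CCAAT and CCACG separated by 9 bases of any kind), ERSE-II (ATTGG and CCACG separated by 1 base), the unfolded protein response element (UPRE, TGACGTGG) and the CCAAT box (CCAAT), which is contained in ERSE and, on the other strand, in ERSE-II. Capitals mark matches to ERSE or ERSE-II, and each window is written 5′ to 3′ on the strand of its gene: chr2:34771840-34772139 (plus strand) for Hspa5, chr10:86705395-86705694 (minus) for Hsp90b1, chr8:94386179-94386478 (plus) for Herpud1 and chr14:119099385-119099684 (minus) for Uggt2.
Hspa5: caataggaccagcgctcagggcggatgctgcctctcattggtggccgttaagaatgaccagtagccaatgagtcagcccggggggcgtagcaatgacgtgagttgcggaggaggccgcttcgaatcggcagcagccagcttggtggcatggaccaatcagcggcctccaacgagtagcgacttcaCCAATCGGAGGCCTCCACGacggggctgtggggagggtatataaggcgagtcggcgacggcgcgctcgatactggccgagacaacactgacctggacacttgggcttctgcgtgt
Hsp90b1: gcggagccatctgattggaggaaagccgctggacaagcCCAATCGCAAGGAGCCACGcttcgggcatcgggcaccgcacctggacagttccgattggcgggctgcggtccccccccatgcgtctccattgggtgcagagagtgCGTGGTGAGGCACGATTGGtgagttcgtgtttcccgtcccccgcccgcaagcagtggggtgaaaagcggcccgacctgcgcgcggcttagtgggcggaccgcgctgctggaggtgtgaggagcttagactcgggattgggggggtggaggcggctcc
Herpud1: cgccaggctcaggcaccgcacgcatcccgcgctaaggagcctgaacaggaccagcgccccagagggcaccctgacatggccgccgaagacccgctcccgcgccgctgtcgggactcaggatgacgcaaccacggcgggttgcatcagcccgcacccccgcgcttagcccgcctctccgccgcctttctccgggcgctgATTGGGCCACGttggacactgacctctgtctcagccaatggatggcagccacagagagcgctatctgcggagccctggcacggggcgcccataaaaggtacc
Uggt2: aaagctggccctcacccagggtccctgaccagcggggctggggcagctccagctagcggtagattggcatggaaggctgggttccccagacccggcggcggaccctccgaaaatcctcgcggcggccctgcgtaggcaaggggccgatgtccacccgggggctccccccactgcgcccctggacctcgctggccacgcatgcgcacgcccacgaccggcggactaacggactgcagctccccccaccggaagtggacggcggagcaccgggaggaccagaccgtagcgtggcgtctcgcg

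Hspa5 held 1 ERSE, which began 65 bases before the transcription start, and Hsp90b1 held 2, the one nearer to the start on the opposite strand. Herpud1 held 1 ERSE-II. None of the 3 motifs was found in the windows of Ern1, Xbp1, Pdia4, Dnajb9, Uggt1 or Uggt2, and no member's window held a UPRE. Of these genes without a match, Xbp1 and Uggt2 were higher by more than the spread. Ern1, Pdia4, Dnajb9 and Uggt1 lay within it, as Hspa5, Hsp90b1 and Herpud1 did. Only exact matches were counted, so the lack of one does not show that a window holds no response element. CCAAT boxes were found in the windows of Hspa5 (4), Hsp90b1 (6), Pdia4 (3), Herpud1 (2), Dnajb9 (1) and Uggt2 (1). ERSE matches are rare: 0.119% of all 32851 windows of this length held one, 0.0365% an ERSE-II, 0.676% a UPRE and 37.4% a CCAAT box. Of the measured genes with an ERSE, 14 were not members. Their median log2 difference was 0.24, 10 of them were above 0, and 5 were higher and 0 lower by more than their spread (17.4% and 12.6% of all measured genes). None of the 16 measured genes with an ERSE was 2-fold apart, beside 2.45% of all measured genes. The 8 measured genes with an ERSE-II, Herpud1 among them, had a median of -0.12 with 3 above 0, and the 103 with a UPRE one of 0.06 with 63 above 0. Of those with a UPRE, 2 were 2-fold higher and 0 lower, beside 1.47% and 0.983% of all measured genes. The median over the 9559 measured genes with a promoter window was 0.03. These counts describe 2 arrays, and a match does not show that a factor binds there.

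The folding sensors of glycoproteins differed from each other. Uggt1 and Uggt2 encode related glucosyltransferases that put a glucose back on the sugar chain of a misfolded glycoprotein, so that the lectin chaperones calnexin and calreticulin bind it again. For Uggt1, 1455839_at read 977 with the Mll2 shRNA and 992 with the control shRNA (-0.02, spread 0.28), and 1448009_at had 333 and 394 (-0.24, spread 0.35). The mean was -0.13 ± 0.16 (SD over 2 probe sets), and the brighter probe set changed sign with spike-in scaling, to 0.09.

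Uggt2 had the largest difference of the set. Its measured probe set, 1431602_a_at, read 250 with the Mll2 shRNA and 67.6 with the control shRNA, 3.70-fold, a log2 difference of 1.89 against a spread of 0.47. Only 9 of 11805 measured genes had a higher difference. The control signal was just above the floor of 64.7, where mismatch subtraction makes values unsure. The second probe set, 1429836_at, did not reach the floor on either array and has no ratio. Its log2 values were 5.67 (Mll2 shRNA) and 1.42 (control). The size depends on the floor: with a pseudocount equal to the floor the difference was 1.25, and with the floor at the 70th percentile, which the Mll2 shRNA value barely passes, 0.0067. Without suffixed probe sets Uggt2 was not measured.

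**Figure D3:**
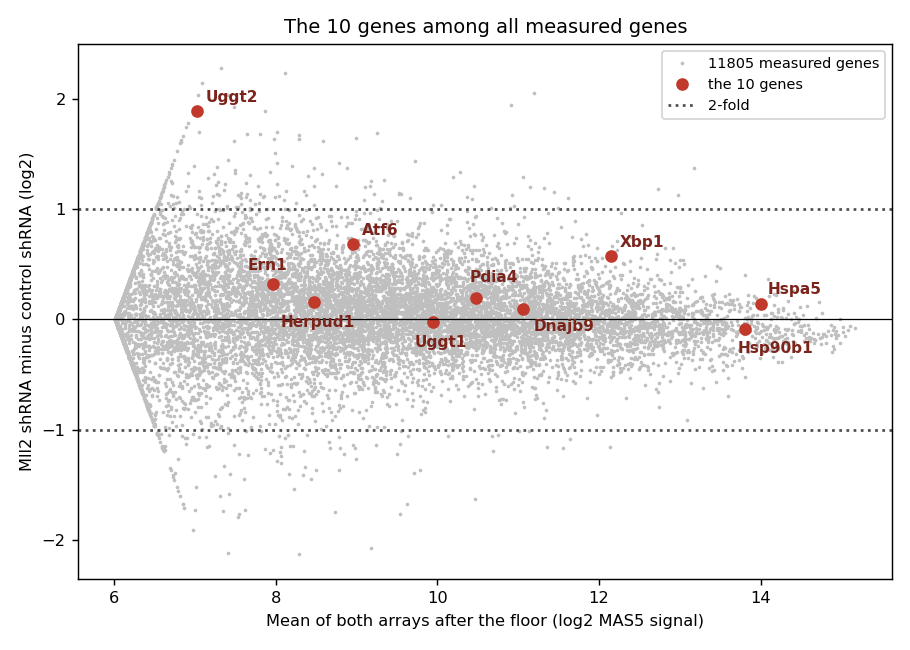
Log2 difference, Mll2 shRNA minus control shRNA (y axis), against the mean log2 MAS5 signal of both arrays after the floor (x axis) for the 11805 measured genes (grey), with the 10 genes in red and 2-fold as dotted lines. Uggt2 lies near the left edge, where genes close to the floor fan out, Xbp1 lies above most genes of its level, and Hspa5 and Hsp90b1 lie near 0 at the far right.

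The rest of the pathway was described with 7 lists of 111 genes, of which 105 were measured. None of the 105 was 2-fold apart (beside 2.45% of measured genes in either direction), 2 were higher by 1.5-fold or more (7.4%) and 0 were lower by as much (4.68%). By more than the spread at their level, 24 were higher and 5 lower, beside 17.4% and 12.6% of measured genes, and the median was 0.04. Differences below are log2 values in the probe set that represents each gene.

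Factors of ER-associated degradation, which carry misfolded proteins back to the cytosol for the proteasome, had the highest median, 0.19 over 19 measured genes, with 13 above 0. In 8 of them the difference exceeded the spread upward and in 0 downward. The largest were those of the lectins Os9 (0.64, signals of 314 and 202) and Erlec1 (0.44), which pass misfolded glycoproteins to the ligase complex, and the lowest those of H13 (-0.33) and Faf2 (-0.18). The 3 Erlec1 probe sets averaged 0.27 ± 0.36 (SD), and the 2 of H13 had opposite signs and averaged -0.08 ± 0.36 (SD). Disulphide isomerases and ER oxidases had a median of 0.14, with 13 of 16 above 0, 6 beyond the spread upward and 1 downward. Txndc11 was at 0.75 (signals of 208 and 124) and the membrane thioredoxin Tmx2 at 0.58, with a mean of 0.36 ± 0.32 (SD over 2 probe sets), whereas P4hb, the main protein disulphide isomerase, was at -0.28 and the oxidase Ero1a at -0.09.

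Genes of the lectin cycle, in which Uggt1 and Uggt2 act, had a median of 0.02 over 9 measured genes, with 6 above 0, 2 beyond the spread upward and 1 downward. The glucosidase gene Mogs, which starts the trimming of the sugar chain, was at 0.33, and calreticulin (Calr) at 0.29, but the 3 Calr probe sets averaged -0.02 ± 0.27 (SD). Prkcsh, the beta subunit of the next glucosidase, was at -0.40 and Clgn, a calnexin-like chaperone, at -0.11. Partners of BiP had a median of -0.05 over 12 genes, 0.07 with spike-in scaling, with 5 above 0 and 7 below, and 1 beyond the spread in each direction. Dnajc3, a co-chaperone of BiP that also inhibits PERK, was at 0.53 and averaged 0.48 ± 0.20 (SD over 4 probe sets), and the nucleotide exchange factor Sil1 was at 0.27. The secreted stress factor Manf was at -0.40 and Hyou1, another exchange factor of BiP, at -0.23, with a mean of -0.52 ± 0.41 (SD over 2 probe sets).

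Other sensors, proteases and transcription factors of the response had a median of 0.01 over 17 genes (-0.01 after quantile normalization and after loess), with 9 above 0 and 8 below, 3 beyond the spread upward and 1 downward. Mbtps2, a protease that releases ATF6, was at 0.56, and Atf4, the transcription factor downstream of PERK, at 0.46, with a mean of 0.70 ± 0.34 (SD over 2 probe sets). Nfya, a subunit of the factor that binds the CCAAT box, was at -0.41 and the IRE1-binding adaptor Traf2 at -0.29. The sensor gene Eif2ak3 (0.05) and the stress-induced Ddit3 (-0.10), added for reference outside the rule for named genes, lay within their spread. The 2 Ddit3 probe sets had opposite signs and averaged 0.01 ± 0.16 (SD). Subunits of the oligosaccharyltransferase, which attaches the sugar chain, had a median of 0.09 over 11 genes, with 7 above 0, 2 beyond the spread upward and 0 downward. The values ran from 0.31 for Tusc3 and 0.28 for Magt1 to -0.14 for Stt3b and -0.20 for Ost4. The 2 Stt3b probe sets averaged -0.05 ± 0.12 (SD). The translocon and signal recognition list had a median of -0.02 over 21 genes, 0.09 with spike-in scaling and 0.0032 after loess, with 9 above 0 and 12 below, 2 beyond the spread upward and 1 downward. Its ends were Spcs2 (0.30), Sec61a2 (0.21), Ssr4 (-0.22) and Srp9 (-0.36). Probe sets differed in sign for Spcs2 (mean 0.13 ± 0.24, SD over 2) and Sec61a2 (-0.03 ± 0.34, SD over 2). They also did for Ssr4 (-0.01 ± 0.21, SD over 3).

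**Figure D4:**
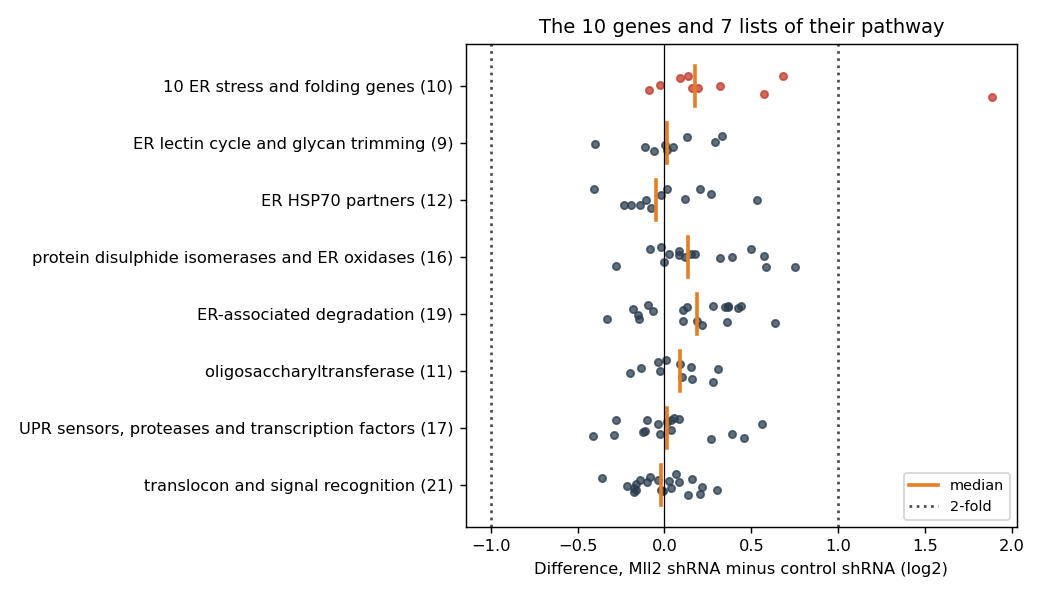
Log2 difference, Mll2 shRNA minus control shRNA (x axis), of each measured gene (points) of the 10 genes and of the 7 pathway lists (y axis, number of measured genes in parentheses), with the median of each row in orange and 2-fold as dotted lines; vertical jitter within a row has no meaning. Uggt2 is the only point past 2-fold, and the row medians run from -0.05 to 0.19.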

How the data were processed

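RNA of 1 Mll2 shRNA and 1 control shRNA culture was hybridised to Affymetrix arrays. The authors deposited log2 values of 45101 probe sets, made with MAS5 per the submitters' processing notes; for its version and any later step, nothing is given in the sources used here. On the linear scale both arrays had a 2% trimmed mean of 500.0. MAS5 treats each probe set alone and subtracts mismatch signal, which makes dim values noisy. The number of arrays limits the precision.

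The values were used as deposited, without 64 control probe sets. The platform annotation gave 34945 probe sets 1 symbol, 932 several and 9160 none; 34741 symbols were updated through Entrez numbers to RefSeq (GRCm38.p6). Steps were tested on simulated data. Members, lists, floor and alternatives were chosen with earlier results of these data known. Named genes are all members, the 2 highest and 2 lowest and any 2-fold gene of each pathway list, the 2 brightest of each marker list and, outside this rule, other markers with the ends of their range or below the floor. Alternatives were 4 scalings, other floors, a pseudocount, the mean over probe sets, no suffixed probe sets and other thresholds. Python 3.11.15 with numpy 2.4.6 and pandas 2.3.3, and R 4.3.3 with limma 3.58.1 (loess only) were used.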

Additional observations from a re-analysis of the deposited data

How the results depend on the processing

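No paired analysis was possible because each group had 1 array, and no replicate could be left out. Scaling on the 18 spike-in probe sets, which differed by -0.12 on average, moved all genes together: the median of all measured genes went from 0.03 to 0.14 and that of the members to 0.29. The list medians became 0.13 (lectin cycle), 0.068 (BiP partners), 0.25 (disulphide isomerases), 0.31 (degradation), 0.20 (oligosaccharyltransferase), 0.10 (other sensors and factors) and 0.095 (translocon), so the members' differences keep about the same distance from the median of all genes. The share of higher genes among those 2-fold apart went from 59.9% to 75.9%. The mean over probe sets gave the disulphide isomerases 0.26, Atf6 0.25 and Ern1 -0.0050, and leaving out suffixed probe sets gave the translocon list 0.059 and Xbp1 0.20. The count of members 2-fold apart, 1 as deposited, was 0 without suffixed probe sets and 0 with the floor at the 70th percentile, since Uggt2 then is not measured or lies at the floor. It was 2 at a threshold of 1.5-fold. The count of all genes past the threshold, 289, became 976 under a floor at the 30th percentile, 88 at the 70th, 718 with no floor, 157 with a pseudocount, 1426 at 1.5-fold and 45 at 3-fold. Other medians of the members ran from 0.15 to 0.20. The median without suffixed probe sets leaves out Hspa5, Hsp90b1 and Uggt2, which then were not measured.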

Other observations

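The genes next to each member in the order of protein-coding RefSeq genes were looked up, 2 on each side. Of the 20 measured, 11 had a log2 difference above 0 and 0 were 2-fold apart, beside 53.5% and 2.45% of all measured genes. Next to Uggt2 lie Dnajc3, the BiP co-chaperone of the pathway lists, and then Dzip1, a gene of cilium formation. Both were higher in the Mll2 shRNA array by more than the spread at their level: Dnajc3 by 0.53 (log2 values of 11.27 and 10.73, spread 0.29) and Dzip1 by 0.49 (8.28 and 7.78, spread 0.38). The neighbours on the other side of Uggt2, Hs6st3 and Oxgr1, were not measured. Of the 18 measured neighbours of the other members, 3 were higher and 2 lower by more than their spread. Among all measured genes the shares were 17.4% and 12.6%. Whether the differences of Uggt2 and its neighbours are related was not tested.

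Of the pathway genes that are not members, 8 had an ERSE in the promoter window. They are part of the 14 measured non-members with an ERSE described above. Their log2 differences were 0.53 for Dnajc3, 0.39 for Ero1b, 0.36 for Syvn1, 0.29 for Calr, 0.19 for Derl3, 0.15 for Pdia6, 0.13 for Canx and -0.10 for Creld2. For those with several probe sets, the means were 0.48 (Dnajc3), 0.24 (Syvn1), -0.02 (Calr), 0.30 (Pdia6) and 0.03 (Canx). Dnajb11 (-0.14) and Krtcap2 (0.15) had an ERSE-II. These genes were picked out by the motif after the values were known, and the values are a description.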
